A study of Mus musculus with 44 samples.

Results

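The maturation of the proximal extraembryonic endoderm into yolk sac endoderm was followed in 8 of the 44 RNA-seq libraries of this mouse series. The 4 starting libraries, called exEndo 2, hold the proximal visceral endoderm of E6.5 embryos (embryonic day 6.5), and the 4 later libraries, called YsEndo, hold the endoderm of the E9.5 yolk sac. They were selected by their titles and tissue labels, by a rule that uses no measured value, although earlier results of these data were known. The study traced extraembryonic cells with aggregation chimeras, in which an mCherry+ morula (CD1/G4) carrying a ubiquitous EF1a-driven reporter was joined with GFP+ G4 mouse embryonic stem cells. The morula then supplies the extraembryonic endoderm and the stem cells supply the epiblast, so that both groups compared here are mCherry+ and of wild-type (WT) genotype. In the study's scheme the proximal endoderm gives rise to the yolk sac endoderm, a descent that these libraries do not themselves trace. The comparison asks how these groups, 3 days apart, differ.

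The groups also differ in how they were collected. Each exEndo 2 library came from 1 embryo, which was cut at the embryonic-extraembryonic border and treated with trypsin and pancreatin in the cold, after which the endoderm layer was stripped in a glass capillary with no sort. Each YsEndo library came from the yolk sacs of 4 embryos, pooled, dissociated with trypsin at 37 °C and sorted as live EPCAM+ mCherry+ cells. By the methods of the study, a small number of sorted cells entered each YsEndo library, and the dissected tissue as a whole entered each exEndo 2 library. Stage, isolation, pooling, sorting and cell input therefore cannot be told apart in any difference given here.

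The visceral endoderm is the outer epithelium of the early mouse conceptus. Before the placenta and the fetal liver work, it takes up maternal proteins at its brush border through the receptors megalin and cubilin, breaks them down in lysosomes, and secretes carrier proteins and lipoproteins toward the embryo. Its proximal part covers the extraembryonic ectoderm and contributes to the endoderm of the visceral yolk sac, which lies against a layer of mesoderm where the first blood forms. AFP, the fetal counterpart of albumin, is the classical product of this tissue.

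Afp, Apoa1, Rbp4 and other secreted carriers were among the most abundant transcripts of the E9.5 endoderm. Afp, on chromosome 5 (chr5:90490737-90508907, GRCm38; ENSMUSG00000054932), stood at 146, 30.2, 192 and 177 TPM, a per-length transcript level scaled to one sum per library, in the exEndo 2 libraries, replicates 1 to 4. It stood at 24518, 23926, 27039.6 and 23871 TPM in the YsEndo libraries. The groups did not overlap, as was so for 59.6% of all genes tested, and replicate 2 of exEndo 2 was the lowest of all. On the log2(TPM + 1) scale on which every difference below is given, as YsEndo minus exEndo 2, Afp rose by 7.79 ± 0.43 (SE) (limma, Benjamini-Hochberg adjusted p = 2.1e-08), the largest rise of all genes called with separate groups. The largest fall was that of Cyp26a1, which encodes a retinoic acid-degrading enzyme (chr19:37697798-37701536; ENSMUSG00000024987). Its values were 199.7, 375, 265 and 299.8 TPM in exEndo 2 and 0.67, 3.69, 13.8 and 0.615 TPM in YsEndo, with no overlap and a difference of -6.24 ± 0.54 (SE) (limma adjusted p = 1e-06).

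The 250 bases before the start of genes were searched for letters known to be bound by the retinoic acid receptor. RefSeq promoter windows (GRCm38.p6) were read on both strands for the direct repeat of a retinoic acid response element, spelled AGTTCA, then any 5 bases, then AGTTCA. Only this spelling was searched, so a window with any other spelling counts as holding no match. The counts therefore do not show how common such elements are. Of 32851 windows, which did not cover every chromosome, 7 held it (0.0213%). They included those of 2 genes called lower in YsEndo, Cyp26a1 and Blvrb, out of 1918 with a window, and of 0 genes called higher out of 695. The sequences of both are shown 5′ to 3′ because they hold the repeat, given in capitals. A match is a description of the letters and not a bound site. The other window of Blvrb held no match. The repeat was chosen after the changes were seen, so the counts of genes with a match are not a test.

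Cyp26a1, chr19:37697558-37697807, plus strand, match 32 to 16 bases before the start: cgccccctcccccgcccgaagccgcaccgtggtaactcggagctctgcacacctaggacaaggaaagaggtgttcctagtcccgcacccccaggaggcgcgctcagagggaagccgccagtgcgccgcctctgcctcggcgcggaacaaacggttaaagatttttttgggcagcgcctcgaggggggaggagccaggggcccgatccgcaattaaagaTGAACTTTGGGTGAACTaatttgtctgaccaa

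Blvrb, chr7:27452168-27452417, plus strand, the second of 2 annotated starts, match 19 to 3 bases before it: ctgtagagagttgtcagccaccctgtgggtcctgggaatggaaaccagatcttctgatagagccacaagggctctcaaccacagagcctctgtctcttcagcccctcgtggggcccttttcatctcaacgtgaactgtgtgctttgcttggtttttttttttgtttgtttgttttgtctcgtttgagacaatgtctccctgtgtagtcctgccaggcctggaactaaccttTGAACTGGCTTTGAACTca

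Depth and markers were first compared with the labels. Aligned sequence, estimated from the deposited coverage and FPKM columns, was 6.57 to 9.06 gigabases in exEndo 2 and 4.91 to 6.73 in YsEndo, and these are PCR-amplified low-input libraries without a molecule count. Genes of any type above 1 TPM numbered 12074 to 13172 in exEndo 2 and 11292 to 11437 in YsEndo. The part of depth and cell input in low YsEndo values was not tested. Libraries of one group correlated at 0.975 to 0.989 (Pearson, log2(TPM + 1)). Against the YsEndo libraries, exEndo 2 replicates 1 and 2 were at 0.857 to 0.868 and replicates 3 and 4 at 0.884 to 0.899. The mCherry transcript was at 4677, 2689.8, 4938 and 1731 TPM in exEndo 2 and 2186, 3473, 3500.2 and 4289 TPM in YsEndo, and EGFP at 0, 0, 0 and 3.59 and 0.17, 0, 0 and 0.467 TPM. The female-specific Xist was at 490.1, 2.96, 199 and 1.58 TPM in exEndo 2 and 37.4, 15.6, 41.9 and 14.4 TPM in YsEndo. It spanned a wide range among the single embryos and a narrow one among the pools, so the share of female cells cannot be told apart from stage for X-linked genes. Of the 18 markers of visceral endoderm, all were tested, and 5 were called higher, 5 lower and 8 not called. Together, with Afp and Apoa1 the largest contributors in YsEndo, they held 1.14 to 1.98% of TPM in exEndo 2 and 6.05 to 6.75% in YsEndo.

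Markers of blood, endothelium, macrophages and mesoderm took small shares of TPM, while those of epiblast and of parietal endoderm, given below, held more in exEndo 2. The 12 red blood cell genes together held at most 0.000841% of TPM in any of the 8 libraries, the 8 endothelial genes at most 0.000919%, the 8 macrophage genes at most 0.00275% and the 15 mesoderm and mesothelium genes at most 0.00993%. Among the defining genes, Hbb-bh1 was at 2.86, 0.374, 0.778 and 2.41 TPM in YsEndo, Ptprc at 0, 0, 0.0118 and 0 and Col1a1 at 0 in all 4. Of the mesoderm and mesothelium genes 5 were tested, with 1 called higher and 2 lower in YsEndo. Of the macrophage genes 2 were tested and both were called higher, Csf1r at 0.0955, 0.123, 0.134 and 0.135 TPM in exEndo 2 and 3.50, 3.45, 3.09 and 2.69 TPM in YsEndo, and Cd68, which lysosomes of other cells also carry, at 17.6, 9.52, 3.35 and 5.30 and 14.8, 23.4, 15.7 and 13.9 TPM. Csf1r was separate between the stages and Cd68 overlapped. Extraembryonic ectoderm lies directly under the proximal endoderm at E6.5, and its markers Elf5, at 0.155, 7.02, 0.659 and 6.51 TPM, and Tfap2c, at 0.559, 12.9, 0.765 and 3.70 TPM, were detected in exEndo 2 and were at most 0.193 TPM in YsEndo. Of 14 listed genes of extraembryonic ectoderm and trophoblast, 5 were tested, with Krt7 and Gcm1 called higher and Bmp4 lower in YsEndo, and the list held 0.00176 to 0.00682% of TPM in exEndo 2 and 0.00796 to 0.0128% in YsEndo. The epiblast gene Pou5f1 was at 0.264, 0.665, 0 and 4.51 TPM in exEndo 2 and at 0 in every YsEndo library. Of 10 listed epiblast genes, among them Dnmt3b, 5 were tested, with 0 called higher and 2 lower in YsEndo. The list held 0.0239 to 0.0312% of TPM in exEndo 2 and 0.00858 to 0.0100% in YsEndo. Of the genes of the anterior and distal visceral endoderm, some were near 0 in exEndo 2, with Cer1 at 0, 0.173, 0.0643 and 0.122 TPM and Otx2 at 0.103, 0, 0.0809 and 0.0583 TPM. Others, among them Hhex, Dkk1 and Hesx1, were expressed there and are given below.

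Across 11205 protein-coding genes with a TPM above 1 in at least 4 of the 8 libraries, 891 were called higher in YsEndo (7.95%) and 2424 lower (21.6%), which is 29.6% in all, a call being an adjusted p under 0.05 in limma and a difference over 1 on the log2 scale. The excess of falls depended on the scaling of the libraries. The median difference of all genes was -0.41 on the deposited TPM, -0.03 after rescaling by median ratios and -0.11 after quantile normalization. With median-ratio rescaling, 1401 genes were called higher (12.5%) and 1265 lower (11.3%), and with quantile normalization 1272 and 1153. All 891 rises were among those called after median-ratio rescaling, whereas 1265 of the 2424 falls were. For each gene list below the counts on the deposited scale are therefore followed by those after median-ratio rescaling. They are to be read against the shares of all genes just given, on the same scale. A gene could pass the filter through either group alone. A gene hardly detected in the other group could then not be called the other way, so the counts of a list are descriptions and not tests. Among the genes named below, the falls of Col4a1, Lamb1, Lrp2, Pros1, Rps12, Tfeb and Top2a were not called after rescaling, while Apoc2, Cdkn1c, Dnmt3a, Epcam, Folr1, Mttp and Tcn2 were then called higher.

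The 10 genes with the highest mean TPM held 11.7 to 12.5% of all TPM in each YsEndo library, and in exEndo 2 the same 10 genes held 2.90 to 4.23%. They were Afp, Apoa1, S100g, Rbp4, Apoe, Ftl1, mt-Nd1, Ttr, Actb and Apoa2. In exEndo 2 the leading 10 were Gm42418, mt-Nd1, Ftl1, Apoe, mt-Atp6, Rps14, mt-Cytb, Spink1, Gm26917 and Rplp1, together 5.02 to 7.27% of TPM. Gm42418 and Gm26917 overlap ribosomal RNA sequence and are not protein-coding, and Gm42418 was at 6563, 17311, 10409 and 8569.8 TPM in exEndo 2 and 3354, 2752, 3843 and 3562 TPM in YsEndo. S100g, the calcium-binding calbindin D9k, was at 404, 3384, 1129 and 1245 TPM in exEndo 2 and 19449, 17088, 15719.5 and 15926 TPM in YsEndo. Its groups did not overlap and the difference was 3.85 ± 0.44 (SE) (limma adjusted p = 8.8e-06).

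**Figure D1:**
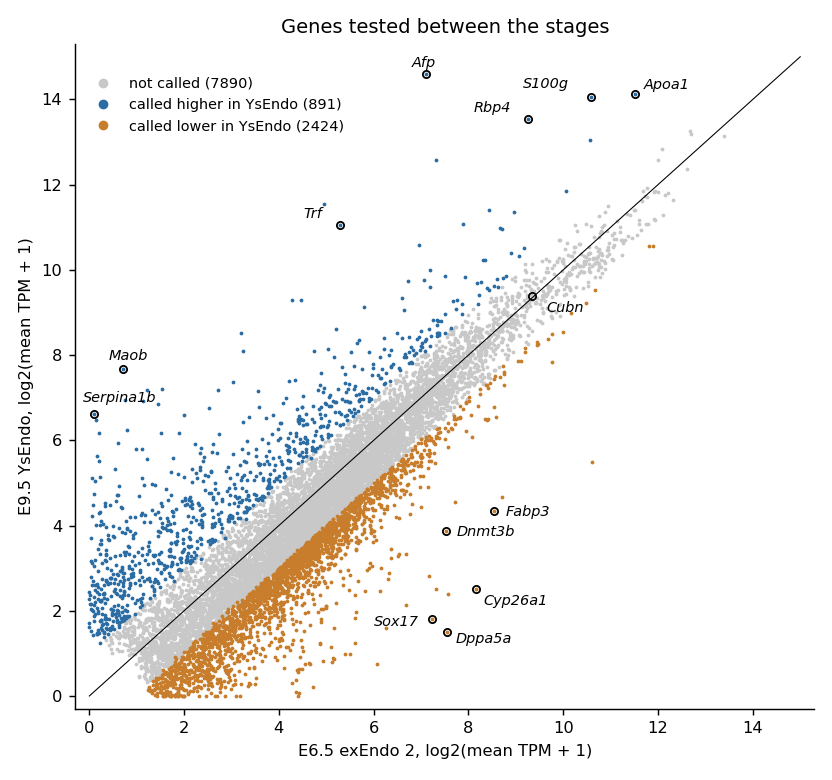
Each point is 1 of the 11205 genes tested, placed by its mean TPM in the 4 exEndo 2 libraries (x axis) and the 4 YsEndo libraries (y axis), both as log2(mean TPM + 1). Blue points (891) were called higher and orange points (2424) lower in YsEndo, the line marks equal levels, and circled genes are named; Afp lies farthest above the line and the calls below the line outnumber those above it on this scale.

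Besides Afp, the 11 other largest rises among genes with separate groups were Maob, Spp2, Urah, Serpina1b, Cfi, Fbp2, Kng1, Tff3, Trf, Marc1 and Krt7. Maob, the X-linked monoamine oxidase B, was at 0.277, 0.477, 1.21 and 0.554 TPM in exEndo 2 and 218, 189, 192 and 211 TPM in YsEndo. Spp2, a secreted phosphoprotein, was at 48.0, 13.6, 39.5 and 19.5 and 2830.4, 2971, 3187 and 3033 TPM, and no library of one group reached the range of the other. Apart from Trf, the other genes averaged under 2 TPM at E6.5. In mean TPM, the uric acid pathway enzyme gene Urah went from 0.0989 to 88.0, the muscle-type fructose bisphosphatase gene Fbp2 from 1.31 to 144, the trefoil peptide gene Tff3 from 1.89 to 147, the molybdenum enzyme gene Marc1 from 1.20 to 121 and the simple-epithelium keratin gene Krt7 from 0.738 to 75.3. Krt7 also marks trophoblast. Among other markers of that lineage, Prl3d1 was at 0 in all 4 YsEndo libraries, and Gcm1 rose, at 0.519, 0.969, 0.116 and 0.368 TPM in exEndo 2 and 2.48, 2.18, 2.80 and 4.65 TPM in YsEndo.

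After Cyp26a1, the 11 largest falls were those of Dppa5a, Sox17, Flrt3, Nrg1, Arl5c, Gm10800, Dkk1, Gm21738, Has2, Ltk and Srgn. Dppa5a, which encodes an RNA-binding protein of pluripotent cells, was at 297, 221, 111 and 115 TPM in exEndo 2 and 2.06, 3.34, 1.97 and 0 TPM in YsEndo. Sox17, an endoderm transcription factor, was at 151, 148, 159 and 137 and 0.349, 5.51, 3.14 and 1.03 TPM. Both genes were well expressed in each exEndo 2 library and near 0 in some YsEndo libraries, without overlap. In mean TPM, Flrt3 from 188 to 4.26 (a cell adhesion protein), Nrg1 from 66.1 to 0.694 (the ERBB ligand neuregulin), Dkk1 from 44.5 to 0.967 (a WNT antagonist), Ltk from 34.9 to 0.831 (a receptor tyrosine kinase) and Srgn from 142 to 6.004 (the proteoglycan serglycin) fell. Has2, the hyaluronan synthase gene, was at 13.52, 22.6, 18.2 and 26.7 TPM in exEndo 2 and was listed at 0 in every YsEndo library. Gm10800 and Gm21738 overlap repeats whose reads cannot be assigned with certainty, and their values are left out for that reason.

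Secreted plasma proteins rose as a group. Of 30 listed genes, 18 were tested and 15 were called higher and 0 lower in YsEndo, with a median difference of 2.65, against -0.41 for all genes (16 higher and 0 lower, with a median of 2.97, after rescaling). Together the listed genes held 0.367 to 0.968% of TPM in exEndo 2 and 5.07 to 5.32% in YsEndo. Trf, the iron carrier transferrin, was at 43.5, 19.6, 52.1 and 37.1 TPM in exEndo 2 and 1806, 2042, 2426 and 2244 TPM in YsEndo (5.84 ± 0.23 (SE), limma adjusted p = 1.1e-09). Ttr, the thyroxine carrier transthyretin, was at 1286, 957, 2036 and 1747 and 8315, 8439.6, 8228 and 9038 TPM (2.55 ± 0.18 (SE), limma adjusted p = 1.9e-07). For both carriers every E9.5 library exceeded every E6.5 library. The α1-antitrypsin cluster, which was at or near 0 TPM at E6.5, appeared at E9.5, with Serpina1b at 116, 32.6, 94.5 and 144 TPM. Reads of Serpina1a to Serpina1e are near-identical, so their division among the 5 genes is uncertain. Albumin itself was near 0 at either stage, with Alb at 0.0435, 0.42, 0.0504 and 0 TPM in exEndo 2 and 0, 0.793, 0 and 0 TPM in YsEndo. The protease inhibitor gene Spink1, already among the leading transcripts at E6.5, was not called (from 4546 to 3486 TPM), and neither was Gc, the vitamin D carrier (from 14.3 to 14.7 TPM).

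Apolipoproteins and lipoprotein assembly genes rose or were not called. Of 23 listed, 21 were tested and 13 were called higher and 0 lower in YsEndo, with a median difference of 1.69 (17 higher and 0 lower, with a median of 2.05, after rescaling). Their summed level went from 1.06 to 2.00% to 4.28 to 5.16% of TPM. Apoa1, the main protein of high-density lipoprotein, was at 2581, 1815, 3790.0 and 3454 TPM in exEndo 2 and 14160.3, 18414, 19249 and 19159 TPM in YsEndo (2.65 ± 0.20 (SE), limma adjusted p = 2.4e-07). Apoa2, its partner on the same particle, was at 113, 143, 165 and 208 and 6265, 5749, 6184 and 6351 TPM (5.31 ± 0.15 (SE), limma adjusted p = 5.9e-11). Apob, the structural protein of very-low-density lipoprotein, was at 375, 196, 401 and 284 and 1395, 1072, 1157 and 1163 TPM (1.97 ± 0.19 (SE), limma adjusted p = 2e-06). The 3 genes were separate between the stages, and Apoa2 changed from a minor to a leading transcript. The hepatic lipase gene Lipc rose from 4.08 to 50.7 TPM and Lcat, which esterifies cholesterol in plasma, from 4.02 to 40.5 TPM. Several members already high at E6.5 were not called on the deposited scale. Apoe, a ligand for lipoprotein receptors, was at 5702, 5111, 8239 and 6954 TPM in exEndo 2 and 6762, 10853, 10848 and 10644 TPM in YsEndo, with overlapping groups. Apoc2, the activator of lipoprotein lipase, went from 4113 to 6075 TPM, and Mttp, which loads lipid onto Apob, from 173 to 293 TPM.

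Genes of blood clotting and its control rose with few exceptions. Of 21 listed, 17 were tested and 15 were called higher and 1 lower in YsEndo, with a median difference of 2.21 (15 higher and 0 lower, with a median of 2.61, after rescaling). The 3 fibrinogen chains rose together. Fga was at 8.00, 5.55, 9.13 and 10.3 TPM in exEndo 2 and 326, 354, 413 and 378 TPM in YsEndo, with no overlap (5.34 ± 0.16 (SE), limma adjusted p = 1.1e-10). In mean TPM, Fgb from 31.7 to 284 and Fgg from 21.0 to 629.8 followed it. Kininogen (Kng1), the source of bradykinin, whose reads may be shared with its close copy Kng2, went from 0.149 to 71.1 TPM, heparin cofactor II (Serpind1) from 1.16 to 54.3, α2-antiplasmin (Serpinf2) from 35.7 to 392 and plasminogen (Plg) from 5.69 to 69.8. Prothrombin (F2) and factor X (F10) were already present at E6.5 and rose less, from 37.4 to 101 and from 43.7 to 119 TPM. Pros1, the cofactor of activated protein C, fell from 29.8 to 14.2 TPM. Complement and innate genes were split, with 12 tested of 24, of which 8 were called higher and 2 lower in YsEndo, with a median difference of 1.46 (8 higher and 1 lower, with a median of 1.76, after rescaling). Complement factor I (Cfi) went from 0.674 to 123 TPM, factor B (Cfb) from 9.39 to 93.2 and β2-microglobulin (B2m) from 98.8 to 534. C3, the central complement protein, was below 1 TPM in the mean of either group.

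**Figure D2:**
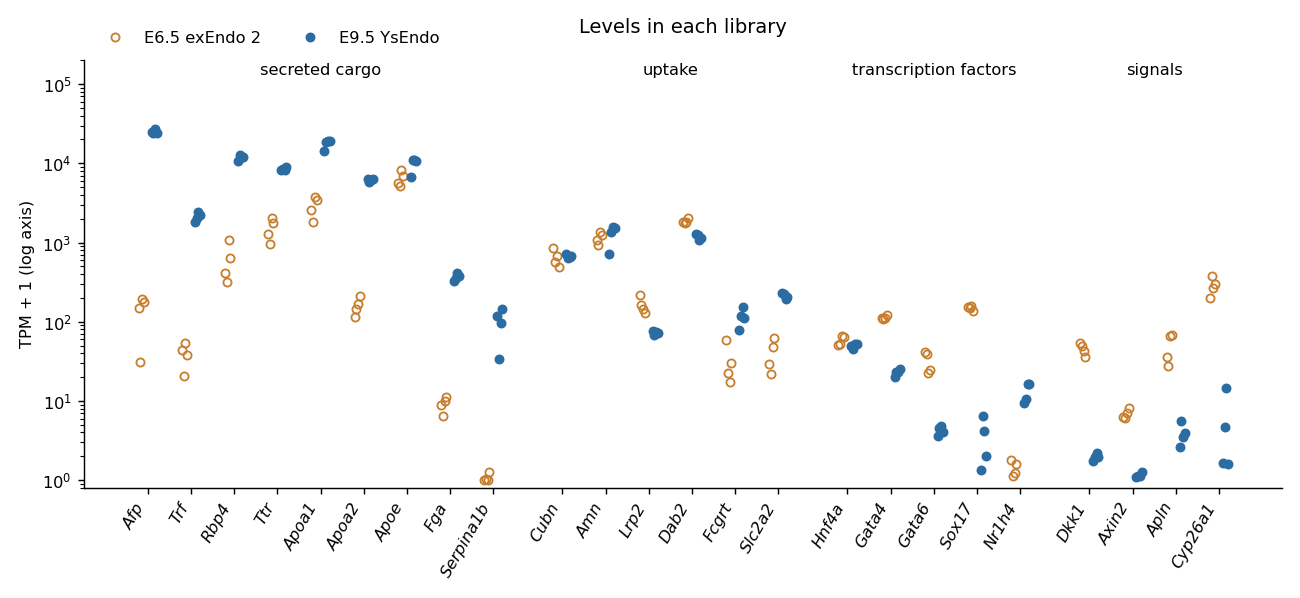
TPM + 1 (log axis) of 24 genes in each of the 4 exEndo 2 (open circles) and 4 YsEndo libraries (filled circles), arranged as secreted cargo, uptake, transcription factors and signals. Most cargo genes sit higher in every YsEndo library, Cubn, Amn and Hnf4a overlap between the stages, and Sox17, Dkk1, Axin2, Apln and Cyp26a1 sit lower in every YsEndo library.

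Retinoid genes were called in both directions. Of 22 genes of vitamin uptake and retinoids, 15 were tested and 4 were called higher and 3 lower in YsEndo, with a median difference of 0.09 (7 higher and 3 lower, with a median of 0.50, after rescaling). Rbp4, the plasma carrier of retinol, was at 417, 319, 1060.0 and 643 TPM in exEndo 2 and 10743, 12829.9, 11944 and 12165 TPM in YsEndo (4.44 ± 0.27 (SE), limma adjusted p = 4.6e-08), without overlap. The intracellular retinol carrier gene Rbp2, from 0.0802 to 31.8 TPM, and the retinal reductase gene Dhrs3, from 8.35 to 28.5 TPM, also rose. The falls, a share of tested members near the 21.6% of all genes, were those of genes that make, bind or degrade retinoic acid or its precursor retinal, Rdh10, from 104 to 29.8 TPM, Crabp1, from 10.0 to 1.28 TPM, and Cyp26a1. Folate receptor 1 (Folr1) and the vitamin B12 carrier Tcn2 were not called, at from 436 to 706 and from 204 to 387 TPM. In the list on iron and haem, 12 of 20 were tested and 2 were called higher and 2 lower in YsEndo, with a median difference of -0.59 (2 higher and 2 lower, with a median of -0.20, after rescaling). That is 16.7% each way, against 7.95% higher and 21.6% lower among all genes. Beside Trf, the iron exporter gene Slc40a1 (ferroportin) rose from 32.3 to 128 TPM, and the iron reductase gene Steap3 fell from 4.13 to 0.134 TPM. Blvrb, a biliverdin reductase gene, was at 140.0, 75.3, 76.4 and 68.4 TPM in exEndo 2 and 6.24, 11.6, 8.72 and 8.41 TPM in YsEndo. Ferritin and the transferrin receptor were not called, with Ftl1 from 6604 to 9393, Fth1 from 3511 to 2163 and Tfrc from 14.4 to 18.5 TPM.

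The machinery of protein uptake was expressed at E6.5 and few of its genes were called. Of 21 endocytic receptor and adaptor genes, 19 were tested and 2 were called higher and 1 lower in YsEndo, with a median difference of 0.19 (3 higher and 0 lower, with a median of 0.59, after rescaling). Cubn, the cubilin receptor, was at 844, 564, 673 and 491 TPM in exEndo 2 and 711, 638, 661 and 669 TPM in YsEndo. Amn, the amnionless subunit that brings cubilin to the surface, was at 1067, 936, 1377 and 1253 and 708, 1338, 1551 and 1521 TPM. The stages overlapped for both. Lrp2, megalin, was lower at E9.5 in every library, at 219, 159.9, 143 and 128 TPM in exEndo 2 and 74.6, 66.1, 74.2 and 70.2 TPM in YsEndo (-1.15 ± 0.15 (SE), limma adjusted p = 2.2e-05). The adaptor gene Dab2 went from 1862 to 1182 TPM without a call, although its groups did not overlap. Fcgrt, the neonatal Fc receptor that carries maternal IgG and albumin, rose from 57.1, 21.3, 16.3 and 29.5 TPM to 78.2, 117, 152 and 109 TPM with no overlap, and Scarb1, a receptor for high-density lipoprotein, rose from 57.6 to 149 TPM.

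Most lysosomal genes were higher by less than the threshold of a call. Of 39 listed, 37 were tested and 6 were called higher and 1 lower in YsEndo, with a median difference of 0.56, and 31 of the 37 differences were above 0 (17 higher and 0 lower, with a median of 0.96, after rescaling). Ctsc, cathepsin C, rose from 241 to 912 TPM, Gm2a, a sphingolipid activator, from 8.95 to 44.2, and Psap, prosaposin, from 35.3 to 99.6. Cathepsin L (Ctsl), the most abundant protease of the list, was not called, from 3405 to 3400.1 TPM, and Tfeb, a transcription factor of lysosomal genes, fell from 29.7 to 12.8 TPM. Membrane transporters had 28 tested of 33, of which 11 were called higher and 3 lower in YsEndo, with a median difference of 0.43 (12 higher and 1 lower, with a median of 0.81, after rescaling). The glucose transporter gene Slc2a2 was at 28.0, 20.8, 47.4 and 62.1 TPM in exEndo 2 and 228, 220.0, 193 and 203 TPM in YsEndo, without overlap, and Slc2a1 went from 205 to 612 TPM. Transporters typical of kidney and gut brush borders appeared from near 0, among them Slc6a19 (neutral amino acids), from 0.175 to 9.06 TPM, Slc5a1 (sodium-coupled glucose), from 0.129 to 6.61, and Slc27a2 (fatty acids), from 1.06 to 25.0. The fall in Slc38a1, a glutamine carrier, was from 40.1 to 12.4 TPM.

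**Figure D3:**
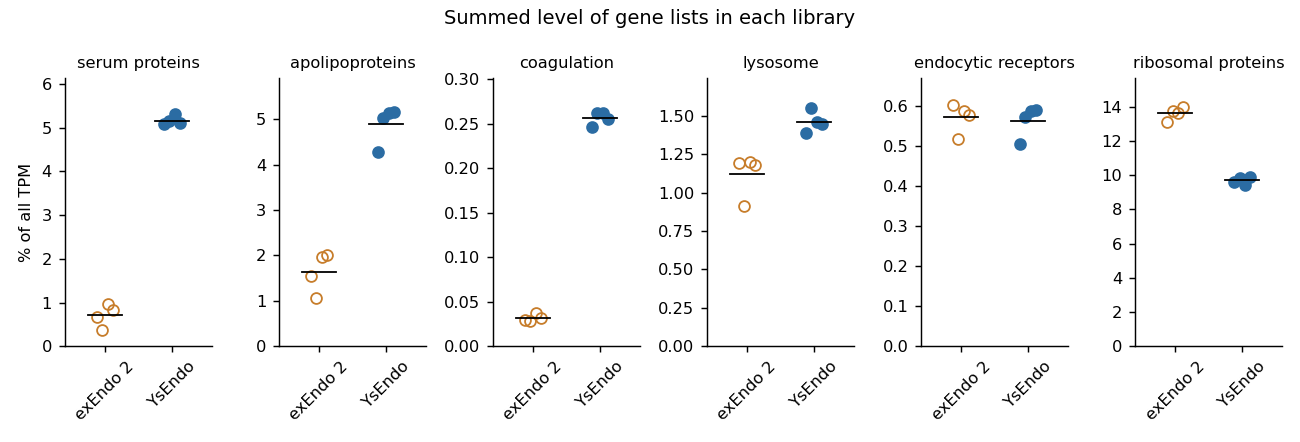
Summed TPM of 6 gene lists as % of all TPM in each exEndo 2 (open) and YsEndo library (filled), with bars at the group means and each axis starting at 0. Serum proteins, apolipoproteins, coagulation and lysosomal genes take a larger share in every YsEndo library, ribosomal proteins a smaller one, and endocytic receptors overlap.

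Transcription factors of the endoderm were called in both directions. Of 39 listed, 31 were tested and 9 were called higher and 14 lower in YsEndo, with a median difference of -0.37 (9 higher and 11 lower, with a median of 0.02, after rescaling). Gata6, a founder factor of primitive endoderm, was at 40.4, 37.8, 21.6 and 23.5 TPM in exEndo 2 and 2.62, 3.60, 3.86 and 3.07 TPM in YsEndo (-2.85 ± 0.22 (SE), limma adjusted p = 3.8e-07). Gata4 was at 109, 106, 112 and 120.1 and 19.3, 22.2, 21.9 and 24.0 TPM (-2.31 ± 0.11 (SE), limma adjusted p = 7.4e-09). Both fell with no overlap, as did Sox7 from 21.8 to 1.09, Klf5 from 58.5 to 6.98 and Klf4 from 19.5 to 1.95 in mean TPM. The hepatic factors Hnf4a and Foxa2 were not called. Hnf4a, a master regulator of liver and visceral endoderm secretion genes, was at 49.8, 51.8, 64.7 and 63.2 TPM in exEndo 2 and 48.6, 44.3, 51.8 and 51.5 TPM in YsEndo, and Foxa2 at 23.2, 28.5, 25.4 and 24.0 and 25.0, 25.9, 28.4 and 31.5 TPM, each with overlapping groups. The bile acid receptor gene Nr1h4 (FXR) rose from 0.434 to 12.2 TPM, the oxysterol receptor gene Nr1h3 (LXRα) from 2.39 to 17.7, the repressor gene Prdm1 (BLIMP1) from 1.03 to 9.48 and Foxa3 from 10.9 to 23.6.

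Signalling genes of the early visceral endoderm fell. Of 26 listed, 15 were tested and 0 were called higher and 12 lower in YsEndo, with a median difference of -2.01 (0 higher and 11 lower, with a median of -1.67, after rescaling). Dkk1 was at 53.6, 48.6, 41.3 and 34.5 TPM in exEndo 2 and 0.752, 0.939, 1.23 and 0.947 TPM in YsEndo. Hhex, a homeobox gene of anterior visceral endoderm and liver, was at 26.6, 13.3, 11.7 and 13.6 and 0.985, 0.149, 0.839 and 0.315 TPM. Foxh1, the partner of SMADs in Nodal signalling, was at 14.8, 10.2, 21.9 and 26.6 and 0.346, 0, 0 and 0.625 TPM. The 3 genes were separate between stages and close to 0 at E9.5. Hhex and Foxh1 were under 1 TPM in every YsEndo library. They passed the filter through exEndo 2 alone, so they could only be called lower. Eomes, from 10.0 to 0.602 TPM, Hesx1, from 22.4 to 0.691, and the angiomotin gene Amot, from 268 to 66.0, also fell. Target genes of BMP, WNT, Hedgehog and FGF signalling had 23 tested of 31, of which 2 were called higher and 12 lower in YsEndo, with a median difference of -1.05 (2 higher and 10 lower, with a median of -0.85, after rescaling). The WNT targets Axin2, from 5.84 to 0.168 TPM, and Nkd1, from 9.41 to 0.219, the BMP targets Msx1, from 102 to 9.05, and Smad6, from 12.8 to 1.31, and the Hedgehog target Ptch1, from 12.8 to 4.13, fell. The rises were both in feedback genes of the FGF pathway, Dusp6, from 42.6 to 119 TPM, and Spry1, from 6.70 to 17.0. The BMP targets Id1 and Id2 were not called, at from 543 to 348 and from 594 to 862 TPM.

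Ligands for the underlying vessels and blood were called in both directions. Of 28 listed, 13 were tested and 2 were called higher and 5 lower in YsEndo, with a median difference of -0.73 (2 higher and 3 lower, with a median of -0.36, after rescaling). On the deposited scale 15.4% were higher and 38.5% lower, against 7.95% and 21.6% of all genes. Apln, the ligand apelin, was at 34.5, 26.4, 64.8 and 66.5 TPM in exEndo 2 and 1.62, 4.61, 2.48 and 2.93 TPM in YsEndo, and Vegfa, the main endothelial growth factor, at 21.9, 24.6, 22.2 and 17.9 and 7.14, 4.34, 4.69 and 3.98 TPM. Neither gene overlapped between the stages. The rises were Fgf1, from 0.36 to 21.3 TPM, and Kitl, the ligand of the KIT receptor on blood progenitors, from 1.72 to 13.7 TPM. Thpo (thrombopoietin) and Igf2 were not called, at from 5.94 to 8.44 and from 66.9 to 68.9 TPM. Bmp4, which extraembryonic ectoderm also expresses, fell from 4.22 to 0.52 TPM, alongside the ectoderm markers Elf5 and Tfap2c given above, whose part in that fall was not tested.

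Metabolic genes of the liver type were called higher more often than all genes. Of 25 genes of amino acid and glucose metabolism, 13 were tested and 7 were called higher and 3 lower in YsEndo, with a median difference of 1.35 (7 higher and 0 lower, with a median of 1.75, after rescaling). The tyrosine-degrading enzyme gene Fah was at 1.02, 1.40, 3.96 and 1.03 TPM in exEndo 2 and 62.0, 74.2, 71.3 and 78.4 TPM in YsEndo, and Ass1, of arginine synthesis, at 106, 61.8, 112 and 105 and 614, 605, 725 and 642 TPM, both without overlap. Hgd, which acts before Fah in the same pathway, rose from 0.477 to 22.9 TPM. Genes that define the adult liver stayed low, with the urea cycle gene Cps1 at 0.0361 TPM, the glucose-6-phosphatase gene G6pc at 0 and Tat at 0 in the YsEndo means. In the fatty acid list, 25 of 27 were tested and 8 were called higher and 2 lower in YsEndo, with a median difference of 0.18 (12 higher and 2 lower, with a median of 0.59, after rescaling). The lipid droplet gene Plin2 rose from 21.8 to 130.3 TPM, and among the fatty acid binding proteins Fabp2 from 32.6 to 133 TPM rose while Fabp3 from 373 to 19.3 and Fabp1 from 341 to 90.2 TPM fell. Fabp3 was at 270.3, 693, 207 and 320.3 TPM in exEndo 2 and 11.2, 14.2, 36.2 and 15.7 TPM in YsEndo, with no overlap.

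Cholesterol synthesis had 24 of 25 genes tested, of which 4 were called higher and 0 lower in YsEndo, with a median difference of 0.43 (8 higher and 0 lower, with a median of 0.83, after rescaling). The rises included Pmvk, from 29.5 to 80.2 TPM, Fdft1, from 29.0 to 63.9, and Dhcr7, from 8.94 to 23.6. Glycolysis had 19 of 20 tested, of which 1 was called higher and 4 lower in YsEndo, with a median difference of -0.42 (2 higher and 2 lower, with a median of -0.02, after rescaling). These shares on the deposited scale, 5.26% higher and 21.1% lower, were near the 7.95% and 21.6% of all genes. Hexokinase 2 (Hk2) was at 48.0, 47.1, 32.8 and 47.5 TPM in exEndo 2 and 6.24, 5.54, 3.53 and 3.17 TPM in YsEndo, with no overlap, and the lactate exporter gene Slc16a3 fell from 13.3 to 2.62 TPM. Lactate dehydrogenase (Ldha), among the most abundant enzymes of either stage, was not called, from 3847 to 3615 TPM. Nuclear genes of oxidative phosphorylation had few calls, with all 62 tested, of which 2 were called higher and 0 lower in YsEndo, with a median difference of 0.19 (9 higher and 0 lower, with a median of 0.60, after rescaling). Ribosomal protein genes, whose reads can be shared with processed pseudogenes, were rarely called one by one. All 76 were tested and 0 were called higher and 2 lower in YsEndo, with a median difference of -0.48, close to that of all genes (0 higher and 1 lower, with a median of -0.07, after rescaling), and their sum went from 13.1 to 14.01% to 9.43 to 9.93% of TPM. The called pair was Rpl22, from 1023 to 371 TPM, and Rps12, from 1629 to 738 TPM.

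**Figure D4:**
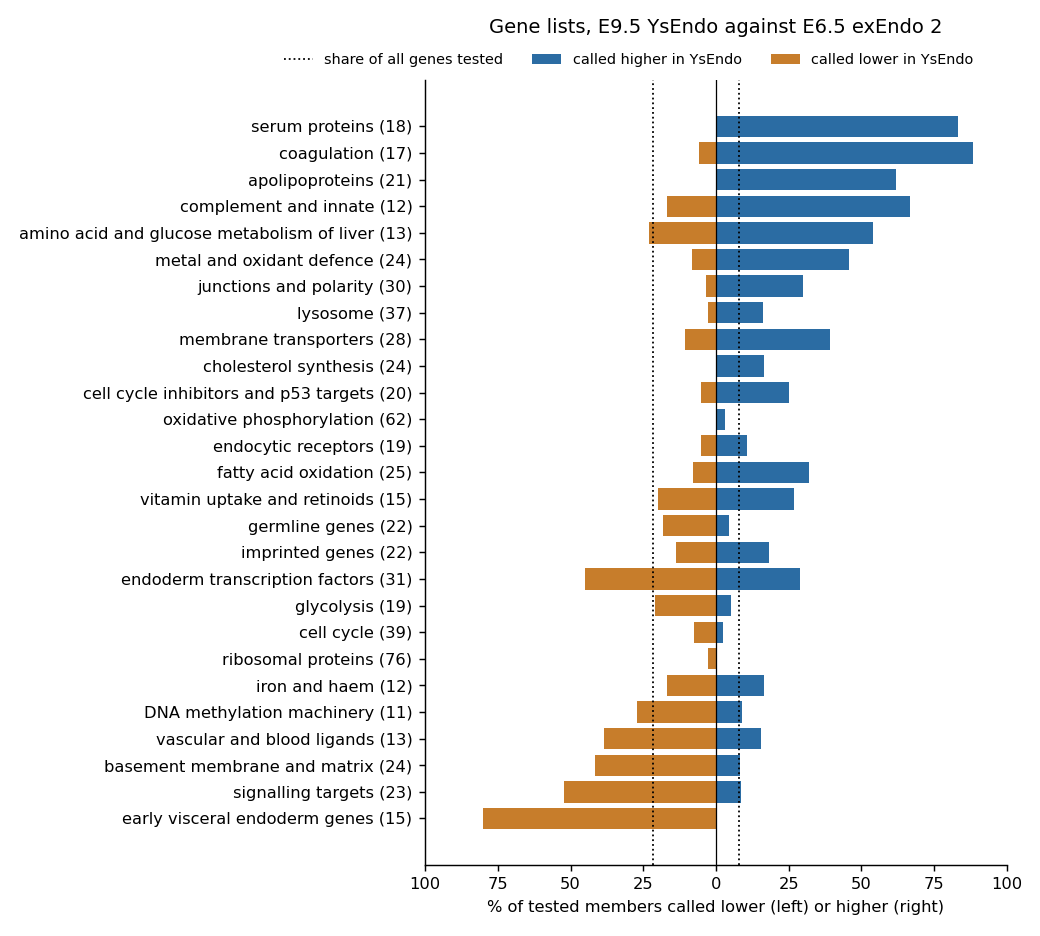
For each of the 27 gene lists, bars give the % of tested members (their number in brackets) called higher in YsEndo (blue, right) or lower (orange, left) on the deposited TPM, ordered by the median difference. Dotted lines mark the shares over all genes tested, 7.95% higher and 21.6% lower; coagulation and serum proteins lie far above the former and early visceral endoderm genes far beyond the latter.

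Few proliferation genes were called. Of 40 cell cycle genes, 39 were tested and 1 was called higher and 3 lower in YsEndo, with a median difference of -0.47 (2 higher and 1 lower, with a median of -0.07, after rescaling). Mki67 was not called, from 36.8 to 21.7 TPM, Top2a fell from 189 to 73.7 TPM, and the cyclin D3 gene Ccnd3 rose from 112 to 225 TPM. Inhibitors of the cell cycle and p53 targets had 20 of 22 tested, of which 5 were called higher and 1 lower in YsEndo, with a median difference of 0.23 (7 higher and 0 lower, with a median of 0.55, after rescaling). Cdkn2a was at 4.49, 18.1, 13.96 and 34.7 TPM in exEndo 2 and 52.7, 62.7, 77.4 and 91.1 TPM in YsEndo, and Cdkn1a, the p21 gene, at 8.23, 19.2, 9.90 and 9.94 and 29.8, 44.4, 39.2 and 57.4 TPM, both higher in every YsEndo library.

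Extraembryonic endoderm is known for low DNA methylation and for expressing genes that methylation silences in the embryo. Of 13 genes of the methylation machinery, 11 were tested and 1 was called higher and 3 lower in YsEndo, with a median difference of -0.61 (2 higher and 2 lower, with a median of -0.21, after rescaling). The deposited-scale shares, 9.09% higher and 27.3% lower, were near the 7.95% and 21.6% of all genes. The de novo methyltransferase gene Dnmt3b was at 141, 162, 222 and 208 TPM in exEndo 2 and 11.7, 18.3, 12.7 and 12.1 TPM in YsEndo (-3.64 ± 0.17 (SE), limma adjusted p = 6.8e-09), with no overlap. Dnmt3a, from 49.6 to 93.4 TPM, and the maintenance genes Dnmt1, from 55.2 to 36.0, and Uhrf1, from 134 to 68.6, were not called. Tet1 fell from 50.1 to 17.9 TPM and Zfp57, which protects imprints, rose from 6.35 to 38.1 TPM. Dnmt3b is also high in epiblast and extraembryonic ectoderm, whose markers Pou5f1, Elf5 and Tfap2c reached 4.51, 7.02 and 12.9 TPM in single exEndo 2 libraries, and their part in this fall was not tested.

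Germline genes were called in shares near those of all genes. Of 30 germline genes, 22 were tested and 1 was called higher and 4 lower in YsEndo, with a median difference of 0.01 (2 higher and 4 lower, with a median of 0.38, after rescaling). On the deposited scale these were 4.55% higher and 18.2% lower, against 7.95% and 21.6% of all genes. Rhox5, a homeobox gene of extraembryonic tissues, was at 1833, 1586, 1743 and 1849 TPM in exEndo 2 and 1771, 2005, 1818 and 1884 TPM in YsEndo, overlapping. The Xlr3, Xlr4 and Xlr5 genes, near-identical copies whose reads are hard to divide, were not called, with Xlr3a from 323 to 282 TPM. Trap1a, an X-linked tumour antigen gene, rose from 181 to 919.7 TPM. By contrast the autosomal germline genes Sycp3, of the synaptonemal complex, and Ddx4, the Vasa helicase, were expressed at E6.5 and fell. Sycp3 was at 59.3, 34.5, 18.8 and 24.1 TPM in exEndo 2 and 0.984, 1.84, 0.549 and 0 TPM in YsEndo, and Ddx4 at 44.6, 13.52, 13.3 and 14.1 and 1.69, 1.23, 0.754 and 1.16 TPM, both without overlap.

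Imprinted genes, expressed from 1 parental copy, moved one by one. Of 31 listed, 22 were tested and 4 were called higher and 3 lower in YsEndo, with a median difference of -0.09 (6 higher and 3 lower, with a median of 0.32, after rescaling). Before rescaling, 18.2% were higher and 13.6% lower, against 7.95% and 21.6% of all genes. Phlda2, a growth-restricting gene of the placenta, was at 199, 648, 452 and 326 TPM in exEndo 2 and 1472, 2146, 2313 and 2159.8 TPM in YsEndo (2.42 ± 0.28 (SE), limma adjusted p = 9.1e-06). Its neighbour Slc22a18, in the same imprinted cluster on chromosome 7, rose from 4.98 to 51.5 TPM, Dlk1 from 11.5 to 63.9 and Plagl1 from 0.454 to 4.68, whereas Cdkn1c of the cluster was not called, from 80.6 to 129 TPM. The falls were Rtl1, from 22.9 to 5.35 TPM, Sfmbt2, from 156 to 43.6, and Nnat, from 3.06 to 0.294. The non-coding H19 was at 1573, 2026, 2167 and 2587 TPM in exEndo 2 and 698, 810.5, 828 and 759 TPM in YsEndo, and Meg3 at 798, 494, 535 and 427 and 201, 255, 279 and 225 TPM. In the fit over all gene types (12205 genes, 31.4% called) the differences were -1.41 ± 0.13 (SE, limma adjusted p = 2.6e-06) for H19 and -1.20 ± 0.17 (SE, limma adjusted p = 5.8e-05) for Meg3.

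Calls in junction components were mostly rises and those in basement membrane genes mostly falls. Of 32 junction and polarity genes, 30 were tested and 9 were called higher and 1 lower in YsEndo, with a median difference of 0.64 (15 higher and 0 lower, with a median of 1.05, after rescaling). The connexin genes Gjb1, at 8.65, 10.6, 15.7 and 13.7 TPM in exEndo 2 and 92.0, 85.7, 88.5 and 99.99 TPM in YsEndo, and Gjb2, from 15.5 to 83.4 TPM in the mean, rose, and so did the keratin gene Krt19, from 3.29 to 23.2, and the brush border scaffold gene Pdzk1, from 119 to 330.1. Epcam, the surface protein used in the E9.5 sort, went from 137 to 252 TPM and was not called. Of 29 matrix genes, 24 were tested and 2 were called higher and 10 lower in YsEndo, with a median difference of -0.77 (5 higher and 5 lower, with a median of -0.43, after rescaling). The laminin gene Lama1 was at 49.6, 132, 34.4 and 27.8 TPM in exEndo 2 and 6.75, 8.54, 7.46 and 6.55 TPM in YsEndo, without overlap. With it fell Lamb1 from 94.0 to 34.0, Col4a1 from 151 to 62.2, Plod2 from 65.4 to 11.7 and Timp3 from 60.4 to 16.2 TPM, while the fibronectin gene Fn1 rose from 53.6 to 139 TPM. Laminin and collagen IV are also the main products of parietal endoderm, which borders this tissue at E6.5. The 11 listed parietal genes held 0.108 to 0.176% of TPM in exEndo 2 and 0.0521 to 0.0671% in YsEndo. Of these, 9 were tested and 0 were called higher and 5 lower in YsEndo, with a median difference of -1.10 (0 higher and 3 lower, with a median of -0.76, after rescaling). The 5 are 55.6% of those tested, against 21.6% of all genes. Beside 3 matrix genes the falls were Pth1r, from 127 to 20.6 TPM, and Fst, from 25.4 to 0.166 TPM, while the parietal marker Thbd was below 1 TPM in the mean of either stage. The part of parietal cells in the matrix falls was not tested.

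Detoxification genes were often called higher and immediate early genes often lower. Of 27 metal and oxidant defence genes, 24 were tested and 11 were called higher and 2 lower in YsEndo, with a median difference of 0.64 (12 higher and 1 lower, with a median of 1.05, after rescaling). Gpx3, the secreted glutathione peroxidase, was at 170.4, 147, 324 and 294 TPM in exEndo 2 and 1976, 2147, 2258 and 2220.4 TPM in YsEndo, and Gstm1 rose from 145 to 1027 TPM and Fmo1 from 49.3 to 310.3 TPM. The metallothioneins Mt1 and Mt2 were abundant at either stage and not called, from 1733 to 1066 and from 851 to 483 TPM. Of 19 immediate early and heat shock genes, 17 were tested and 0 were called higher and 10 lower in YsEndo, with a median difference of -1.17 (0 higher and 6 lower, with a median of -0.77, after rescaling). Fos was at 156, 113, 8.41 and 50.6 TPM in exEndo 2 and 9.41, 2.74, 12.1 and 9.25 TPM in YsEndo, and Fosb at 34.7, 31.3, 2.06 and 13.7 and 0, 0.168, 0 and 0.0398 TPM. Fos was highest in exEndo 2 replicates 1 and 2, while replicate 3 lay within the YsEndo range, and Fosb was separate. These genes respond within minutes to handling, and the isolation differed between the stages, so stage and isolation cannot be told apart for them.

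The same E6.5 to E9.5 interval was then compared along the distal route. On it, in the study's scheme, exEndo 1, the distal visceral endoderm, becomes the extraembryonic gut cells of exMidgut and exHindgut (n = 4 each). The difference between the routes, as the change from exEndo 2 to YsEndo minus the change from exEndo 1 to the mean of both gut groups, was tested in limma over the 20 libraries. Of 13341 genes, 5219 were called (39.1%), 1273 with a positive (9.54%) and 3946 with a negative difference (29.6%). The E9.5 groups of either route were sorted and the E6.5 groups were not. Per the methods, only the gut groups were also enriched for EPCAM+ cells on magnetic beads before the sort. Isolation therefore differed between the routes as well. The median over all genes was -0.53. On median-ratio rescaled values the calls were 2153 positive and 2624 negative. For 150 genes the proximal change was called a rise, the distal change a fall, and the difference was called as well, and for 295 genes the reverse held.

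The genes with the largest positive difference were Apoc2, Spp2, Afp, Apoa1, Apoa4 and Npl. Apoc2 was uncalled on the proximal route, and it stood at 3031 ± 1168 in exEndo 1, 3.54 ± 3.30 in exMidgut and 0 ± 0 in exHindgut (mean TPM ± SD, n = 4 each), a route difference of 11.19 ± 0.50 (SE) with a limma adjusted p of 5.2e-13. Afp stood at 2005 ± 496 in exEndo 1, 6588 ± 1543 in exMidgut and 186 ± 179 in exHindgut, a route difference of 8.95 ± 0.78 (SE) (limma adjusted p = 5.8e-09). Against exEndo 1, its mean was higher in exMidgut and lower in exHindgut, so the distal term for Afp averages opposite changes. Its spread in exHindgut was near its mean. Apoa1 stood at 5196 ± 1171 in exEndo 1, 1440.4 ± 811 in exMidgut and 4.45 ± 3.75 in exHindgut, a route difference of 8.83 ± 0.67 (SE) (limma adjusted p = 7.8e-10). For Spp2 the difference was 10.26 ± 0.77 (SE), for Apoa4 8.31 ± 0.62 (SE) and for Npl, an enzyme of sialic acid breakdown, 8.30 ± 0.50 (SE). Among the 21 apolipoprotein genes tested in both fits, 13 were called higher on the proximal route and 13 lower on the distal one, where 12.3% of all genes were called lower. For the uptake genes Cubn, Amn and Dab2 the distal change was the larger. Cubn was uncalled proximally and stood at 518 ± 185 in exEndo 1, 25.0 ± 13.1 in exMidgut and 0 ± 0 in exHindgut, with a route difference of 6.77 ± 0.40 (SE) (limma adjusted p = 2.2e-11), and Amn differed by 6.20 ± 0.56 (SE) and Dab2 by 5.87 ± 0.39 (SE).

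The most negative differences were those of Robo2, Gpx2, Ifitm1, Myl9, Map1b and Nrep, which were low in YsEndo. Robo2, a guidance receptor gene, was at 2.97, 12.3, 2.54 and 1.92 TPM in exEndo 2 and 0.107, 0, 0.0649 and 0 TPM in YsEndo, without overlap, and stood at 0.236 ± 0.2 in exEndo 1, 116 ± 31.9 in exMidgut and 50.9 ± 13.04 in exHindgut, a route difference of -8.17 ± 0.46 (SE) (limma adjusted p = 1.3e-11). Gpx2, the gastrointestinal glutathione peroxidase, differed by -7.85 ± 0.46 (SE), Ifitm1 by -7.47 ± 0.50 (SE), Myl9 by -7.24 ± 0.60 (SE), Map1b by -7.24 ± 0.43 (SE) and Nrep by -6.84 ± 0.40 (SE). Some falls were common to the routes. Cyp26a1 fell on the distal route too, standing at 932 ± 395 in exEndo 1, 0.637 ± 0.722 in exMidgut and 227 ± 28.9 in exHindgut, and Dnmt3b stood at 308 ± 60.1 in exEndo 1, 21.7 ± 11.7 in exMidgut and 38.1 ± 13.2 in exHindgut. For Sox17 the levels were 76.8 ± 28.5 in exEndo 1, 1.55 ± 2.19 in exMidgut and 22.2 ± 12.5 in exHindgut. The intestinal factor Cdx2 was uncalled on the proximal route, at 8.20, 19.5, 22.2 and 21.0 TPM in exEndo 2 and 12.8, 15.8, 23.9 and 16.7 TPM in YsEndo with overlap, and stood at 19.14 ± 8.34 in exEndo 1, 153 ± 24.6 in exMidgut and 244 ± 61.4 in exHindgut, a route difference of -3.34 ± 0.40 (SE) (limma adjusted p = 5.7e-07).

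**Figure D5:**
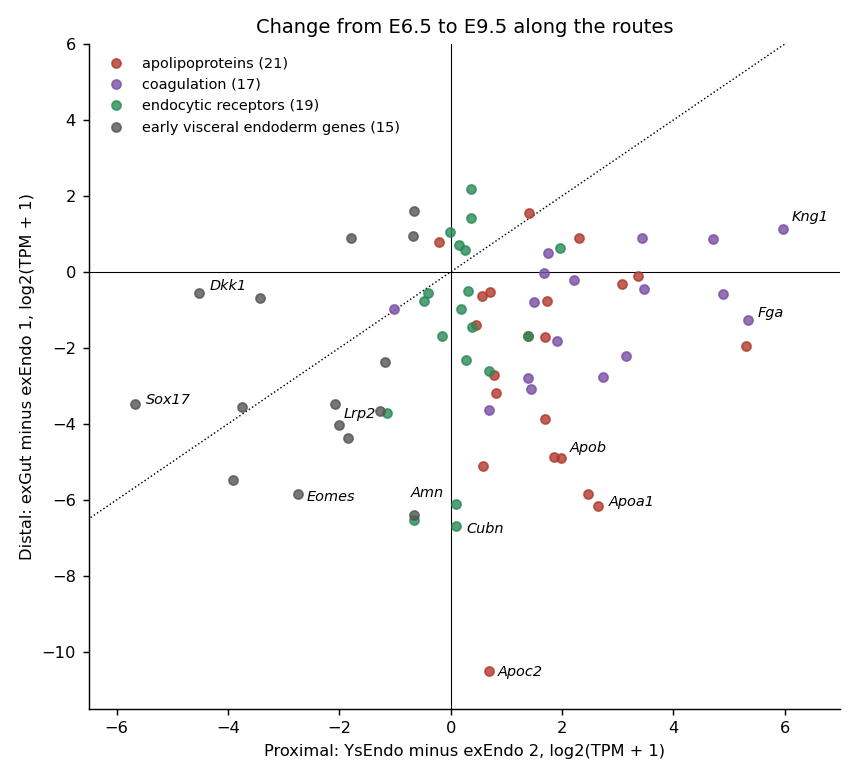
Change from E6.5 to E9.5 on the log2(TPM + 1) scale along the proximal route (x axis, YsEndo minus exEndo 2) and the distal route (y axis, mean of exMidgut and exHindgut minus exEndo 1) for the members of 4 gene lists tested in both fits. The dotted line marks equal change; apolipoprotein genes lie mostly at the lower right, positive proximally and negative distally, Cubn and Amn lie near the vertical axis, and early visceral endoderm genes lie mostly at the lower left.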

How the data were processed

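RNA was measured in low-input poly(A) libraries made by a Smart-seq2-type protocol, n = 4 per group. Per the labels and methods, reads were trimmed by the authors (cutadapt 4.1), mapped to mm10 (STAR 2.7.9a) and quantified over GENCODE VM23 genes (StringTie 2.0.6), versions as in the submitters' processing notes; they deposited TPM, FPKM and coverage per gene. Poly(A) selection and PCR amplification without molecular identifiers shape these values, and no counts were used here, so no counting error can be given. The deposited TPM values, scaled to the same sum in every library, were the main measure; the deposited FPKM gave an alternative, and the deposited coverage divided by FPKM gave the aligned sequence per library.

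TPM were summed per gene identifier (32287, of which 32235 matched GENCODE vM21, used for gene types and GRCm38 positions). Protein-coding genes not on the Y chromosome with TPM above 1 in at least 4 libraries were tested as log2(TPM + 1) with limma 3.58.1 (R 4.3.3; eBayes with trend, Benjamini-Hochberg adjustment, two-sided). The pseudocount of 1 TPM understates changes of low genes. Calls required a difference beyond 1 in either direction together with an adjusted p below 0.05. E9.5 libraries are separate pools and E6.5 libraries separate embryos. The route difference was a contrast over 20 libraries. Positions are from GENCODE vM21 and promoter sequences from RefSeq, by symbol. The fits were tested on simulated data. For the stage comparison 92% of true log2 changes of 1.5 and 100% of those of 3 were called. For the route difference the shares were 49% and 86%, lower than for the stage comparison in this simulation. False calls were 3 and 4. In either fit 100 genes were changed per size, in YsEndo alone. Far more genes were called in the data, so these shares need not hold there.

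Genes named are, by rule, the 12 largest rises and falls with separate groups, up to 4 called genes each way per list and any member needed for background, the 6 largest route differences each way, and the 10 highest genes per group. Some genes that the rule takes are not reported here. Gcm1, Csf1r and Cd68 were added after their values were seen. The libraries, the gene lists and these rules were chosen with earlier results of these data known. The motif was chosen after the changes were seen. Alternatives covered pseudocount, filter, scaling, FPKM, limma options, gene types, all 44 libraries, replicate blocks and leaving out each library.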

Additional observations from a re-analysis of the deposited data

Results flagged for a closer look

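In 35 of 368 groups of 4 libraries examined for the 184 genes described, 1 library was set apart from the other 3 by Dixon's criterion on TPM. Chance alone gives about 1 in 20 such groups. In YsEndo replicate 1 the highest TPM stood apart for Kitl (17.9), Rps12 (826), Sfmbt2 (51.4) and Xlr3a (293). In YsEndo replicate 1 the lowest TPM stood apart for Apoa1 (14160.3), Apoe (6762), Dlk1 (41.6) and Plg (63.6). In YsEndo replicate 2 the highest TPM stood apart for Alb (0.793) and Dnmt3b (18.3). In YsEndo replicate 3 the highest TPM stood apart for Elf5 (0.193), Epcam (279.8), Fmo1 (339.5), Ltk (2.36), Nkd1 (0.763) and Ptprc (0.0118). In YsEndo replicate 4 the lowest TPM stood apart for Plagl1 (2.25). In exEndo 2 replicate 1 the highest TPM stood apart for Blvrb (140.0), Ddx4 (44.6), Gjb2 (18.7), Hhex (26.6) and Mt1 (2182). In exEndo 2 replicate 2 the highest TPM stood apart for Alb (0.42), Cdkn1a (19.2), Fst (63.3), Krt7 (1.90) and Robo2 (12.3). In exEndo 2 replicate 2 the lowest TPM stood apart for Ass1 (61.8) and Fgg (11.6). In exEndo 2 replicate 3 the highest TPM stood apart for Fah (3.96) and Pdzk1 (146). In exEndo 2 replicate 3 the lowest TPM stood apart for Hk2 (32.8). In exEndo 2 replicate 4 the highest TPM stood apart for EGFP (3.59), Pou5f1 (4.51) and Serpina1b (0.269). The values of Alb, EGFP, Elf5, Pou5f1, Ptprc and Serpina1b are of genes near 0.

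The change from E6.5 to E9.5 differed between the proximal and the distal route for 5219 of 13341 genes (39.1%), by the test of the difference itself. Among the genes described, the difference was positive, on the log2(TPM + 1) scale, for Apoc2 (11.19), Spp2 (10.26), Afp (8.95), Apoa1 (8.83), Apoa4 (8.31), Npl (8.30), Cubn (6.77), Amn (6.20) and Dab2 (5.87), and negative for Robo2 (-8.17), Gpx2 (-7.85), Ifitm1 (-7.47), Myl9 (-7.24), Map1b (-7.24), Nrep (-6.84) and Cdx2 (-3.34). For Afp the distal change averages a rise in exMidgut and a fall in exHindgut. The E9.5 groups of both routes were sorted and the E6.5 groups were not, and only the gut groups were enriched on magnetic beads before the sort.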

How the results depend on the processing

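Scaling had the largest effect on the balance of rises and falls. For YsEndo against exEndo 2, 891 rises and 2424 falls became 1401 and 1265 with median-ratio rescaling, 1272 and 1153 with quantile normalization, and 569 and 1088 (1657 of 3315 in all) with a pseudocount of 5 TPM, which shrinks differences of low genes by construction. For the route difference, 1273 positive and 3946 negative calls became 2153 and 2624, 2087 and 2176, and 953 and 2474 (3427 of 5219 in all) under the same 3 settings. The cause of the scaling shift was not tested. The other counts stayed within 1.5 times. Leaving out 1 library gave 3161 to 3513 calls for the stage comparison (867 to 928 rises, 2252 to 2624 falls) and 4885 to 5331 for the route difference (1210 to 1327 positive, 3651 to 4039 negative).

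The titles number the replicates 1 to 4 in each group, but the labels tie no number to an animal or day. Deviations of same-numbered libraries correlated at 0.114, -0.00926, 0.0483 and -0.0179, and 1 of 4 exEndo 2 libraries was closest to its own number, so the numbers were not treated as pairs. A random replicate block gave 891 rises and 2424 falls, a fixed block 891 and 2427, and the random block gave 1275 and 3952 for the route difference. The block changed no call of a named gene.

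Of 171 named genes tested, 143 stayed on the same side of the call in every alternative that tested them, and so did 16 of 16 named route differences. No called gene changed sign, while uncalled genes near 0 difference, such as Cdx2, Gc and Igf2, did in some alternatives. Beside the rescaling changes given above, the limma fit over all 44 libraries lost the calls of F2 (0.12), Nnat (0.089), Pros1 (0.058) and Tfeb (0.087) (adjusted p in brackets). With a pseudocount of 5 TPM the differences fell under the threshold for Bmp4 (-0.72), Ccnd3 (0.998), Cd68 (0.74), Csf1r (0.67), Foxa3 (0.86), Gcm1 (0.54), Nnat (-0.58), Plagl1 (0.81), Pros1 (-0.86), Ptch1 (-0.92), Robo2 (-0.87), Spry1 (0.92), Steap3 (-0.82) and Tfeb (-0.97), with quantile normalization for Pros1 (-0.60), Ptch1 (-0.88) and Tfeb (-0.72), with array weights for Ccnd3 (0.90), Foxa3 (0.92) and Pros1 (-0.97) and with FPKM for Pros1 (-0.93). With no filter on low values limma gave Cd68 an adjusted p of 0.081, so that its call was lost. Calls were gained for Dnmt3a (1.06) with quantile normalization, for Dnmt3a (1.03) with array weights and for Tcn2 (1.02) with FPKM. With 1 library left out, calls near the threshold of 1 were lost for Ccnd3 without exEndo 2 replicate 1, exEndo 2 replicate 2, YsEndo replicate 3 and YsEndo replicate 4 (0.91 to 0.96), for Cd68 without exEndo 2 replicate 3, exEndo 2 replicate 4 and YsEndo replicate 2 (0.71 to 0.89), for Foxa3 without exEndo 2 replicate 1 (0.92), for Lamb1 without exEndo 2 replicate 2 (-0.95), for Lrp2 without exEndo 2 replicate 1 (-0.996) and for Pros1 without exEndo 2 replicate 2 and YsEndo replicate 1 (-0.99 to -0.94). Calls were gained for Dnmt3a without exEndo 2 replicate 2 (1.04), for Tcn2 without exEndo 2 replicate 3, exEndo 2 replicate 4 and YsEndo replicate 1 (1.08 to 1.11) and for Uhrf1 without YsEndo replicate 2 (-1.01).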
